A study of Mus musculus with 12 samples.

Results

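Keratins are the intermediate filament proteins of epithelial cells, and Krt7, Krt8, Krt18, Krt19 and Krt23 are the members of the family looked at here, the simple keratins of single-layered and glandular epithelium. They were taken from the raw count table by gene symbol, which found 5 of 5 among 25210 genes, and the table held 38 other keratin genes. Primary mammary epithelial organoids had been made from virgin female FVB/N mice at 8 to 11 weeks of age and embedded in growth-factor-reduced Matrigel in a minimal medium. One culture was set up from each of 3 animals and divided over 4 treatments of 7 days: the vehicle DMSO, and 3 doses of CHIR99021 (1, 1.5 and 3 µM). This small molecule blocks GSK3, a kinase that otherwise marks β-catenin (CTNNB1) for destruction, and so switches on WNT signalling. The 12 libraries were therefore 3 per treatment, all of 1 strain and with no genetic change named in the labels, and they are called cultures 1, 2 and 3 throughout. The titles also tag these cultures med, min and max, in that order and with no explanation, so they may differ by more than the animal.

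Keratin filaments are built from pairs of an acidic type I and a basic type II chain, and neither chain is stable without a partner. In the mammary gland the luminal cells that line the ducts are marked by the type II keratins Krt7 and Krt8 and the type I keratins Krt18 and Krt19, whereas the outer basal, or myoepithelial, layer is marked by Krt5 and Krt14. Krt6a, Krt6b and Krt16 are keratins of stressed or proliferating stratified epithelium, and Krt1 and Krt10 are those of the upper layers of skin. The comparison asks what the simple keratins do as the WNT pathway is driven harder.

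Values are CPM, the counts of a gene in each M (mega) counts of its library, after TMM scaling, edgeR's correction for library composition. A gene is called changed where the adjusted p of edgeR's quasi-likelihood test is below 0.05 over 15316 genes tested. All 5 keratins passed the filter on low counts. Library totals ran from 10.1 M to 24.5 M counts. All 9 luminal markers examined were detected in all groups, and so were markers of cells other than epithelium. The summed level of 7 fibroblast markers lay between 1624 and 20508 CPM in DMSO and between 175 and 4569 CPM at 3 µM, and that of 6 macrophage markers between 261 and 2597 CPM in DMSO and between 40.9 and 121 CPM at 3 µM. None of these marker genes was at 0 in all libraries of a group. Epcam, an epithelial surface protein and 1 of these 9 luminal markers, was at 466 ± 126 CPM in DMSO and 604 ± 137 CPM at 3 µM (SD, n = 3). The log2 difference was 0.37 ± 0.234 (SE, edgeR adjusted p = 0.192). In bulk RNA fewer cells of a type and less RNA per cell cannot be told apart, and the part of other cell types in the keratin results was not tested. One library stood apart at 3 µM: culture 3 had 424 CPM of suprabasal keratins (Krt1, Krt2, Krt4, Krt10 and Krt13 together), against 11620 and 15551 CPM in the other cultures. Culture 3 was also lowest at 1 µM (39.1 CPM, against 216.8 and 392.9) and at 1.5 µM (796.5 CPM, against 2947 and 3259.6). The difference was thus not confined to its 3 µM library.

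The 5 genes lie in the keratin clusters of chromosomes 15 (type II) and 11 (type I), build GRCm38. Krt8 (ENSMUSG00000049382, minus strand, 101996711 to 102004342) and Krt18 (ENSMUSG00000023043, plus strand, 102028216 to 102032026) are neighbouring keratin genes on chromosome 15 and are transcribed away from each other. Between their GENCODE M21 ends, which differ slightly from these coordinates, the gap is 23.7 kb, with no other gene wholly inside it. Krt18 is the type I gene that sits in the type II cluster. Krt7 (ENSMUSG00000023039, plus strand, 101411043 to 101430313) is in the same cluster. Krt19 (ENSMUSG00000020911, minus strand, 100140810 to 100148665) and Krt23 (ENSMUSG00000006777, minus strand, 99477974 to 99493137) are on chromosome 11. In the GENCODE M21 annotation Krt7 overlaps the antisense gene Gm671 and Krt8 overlaps the lincRNA Gm36026. Whether strand was used in counting is not given in the sources used here, so reads of these pairs cannot be told apart.

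Stretches from the windows before the RefSeq start sites are shown because the results turn on neighbours that moved together (Krt8 and Krt18) and on genes that moved the other way (Krt7 and Krt23). They come from RefSeq promoter windows on GRCm38.p6, cut to the bases outside the exons of protein-coding GENCODE transcripts: Krt8 at chr15:102004483-102004592, minus strand, Krt18 at chr15:102027966-102028179, plus strand, Krt7 at chr15:101412153-101412401, plus strand and Krt23 at chr11:99493138-99493370, minus strand. The Krt8 stretch stops 140 bases short of the RefSeq start, that of Krt18 36, that of Krt23 17 and that of Krt7 1. The Krt7 stretch lies within the span of Krt7 given above, because other Krt7 transcripts of GENCODE M21 start upstream of it. A window was found for 4 of the 5 genes, Krt19 being the other. Capitals mark GATAAG, the GATA factor motif, in Krt8 and GGGCGG or its reverse complement CCGCCC, the GC box, in Krt7.
Krt8: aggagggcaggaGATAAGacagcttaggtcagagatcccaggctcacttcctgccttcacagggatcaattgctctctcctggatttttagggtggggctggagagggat
Krt18: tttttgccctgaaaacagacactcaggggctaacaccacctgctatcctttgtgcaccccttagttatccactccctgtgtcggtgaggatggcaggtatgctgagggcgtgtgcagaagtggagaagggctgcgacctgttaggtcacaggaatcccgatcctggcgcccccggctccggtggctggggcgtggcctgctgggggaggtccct
Krt7: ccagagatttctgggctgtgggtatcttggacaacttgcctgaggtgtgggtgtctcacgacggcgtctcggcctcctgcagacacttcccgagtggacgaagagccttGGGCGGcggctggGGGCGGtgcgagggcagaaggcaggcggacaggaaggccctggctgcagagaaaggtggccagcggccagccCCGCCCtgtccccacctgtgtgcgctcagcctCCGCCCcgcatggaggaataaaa
Krt23: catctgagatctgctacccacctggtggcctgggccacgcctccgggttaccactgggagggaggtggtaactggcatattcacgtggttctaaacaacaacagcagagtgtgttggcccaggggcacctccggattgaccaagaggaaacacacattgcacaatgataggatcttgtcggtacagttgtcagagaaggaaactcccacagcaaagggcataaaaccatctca
Motifs were searched on both strands of the whole 300-base windows. The core letters of the TCF/LEF site, through which β-catenin acts, CTTTGA, were in none of the 4 and in 16% of all 32851 windows of that length. The AP-1 motif TGANTCA was in none of the 4 and in 7.81% of all windows. The GC box was in the Krt7 window only, with 4 matches at 141, 128, 56 and 24 bases before the start, and in 35.7% of all windows. GATAAG was in the Krt8 window only, 238 bases before the start, and in 7.44% of all windows. TATAAA, the TATA box, was in 13.6% of all windows and among the 4 only in that of Krt8, as overlapping matches on both strands at the RefSeq start, outside the stretch printed. A match is a string of letters and no evidence of binding.

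At 3 µM all 5 simple keratins differed from DMSO, and they split. Krt7 and Krt23 rose, and Krt8, Krt18 and Krt19 fell. This is read against a background in which 57.5% of all tested genes were called in this comparison, 29.9% higher and 27.7% lower. The median log2 fold change was −0.48 over the 5 keratins and −0.03 over all genes tested. At 3 µM no library of any of the 5 overlapped the DMSO libraries, as was so for 60.8% of all genes tested. The panels of CPM by dose show each culture as its own line.

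**Figure D1:**
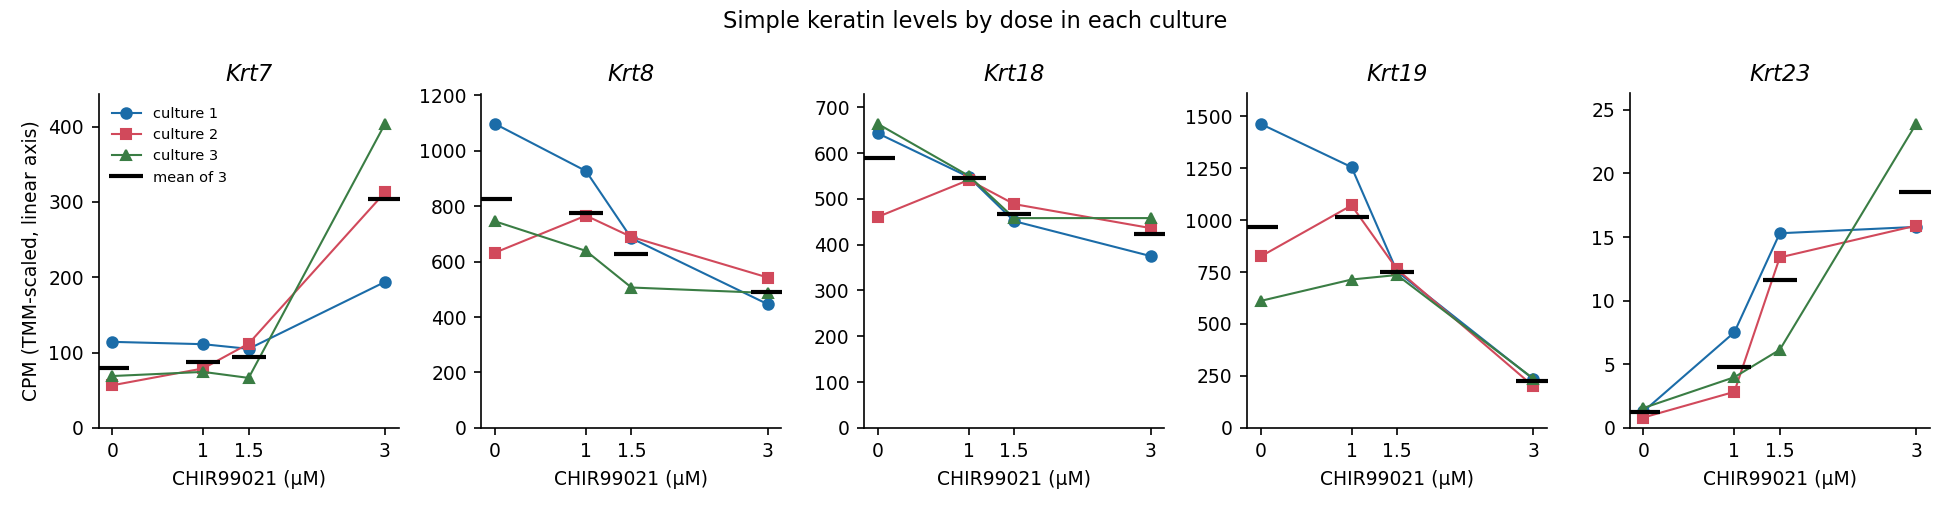
Level of each simple keratin (TMM-scaled CPM, linear axis from 0) against the CHIR99021 dose in µM, with DMSO at 0; coloured lines join the libraries of 1 culture and black bars are means of 3. Krt7 stays near its DMSO level of 79.8 CPM up to 1.5 µM and stands at 303 CPM at 3 µM. Krt19 drops to 224 CPM at 3 µM. On this scaled axis Krt23 climbs at every dose in every culture, but only from 15.3 to 15.8 CPM over the last step in culture 1.

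Among the type II keratins, Krt7 is the one of ducts and glands. Its level was 114, 56.5 and 68.8 CPM in DMSO (cultures 1, 2 and 3), 111, 78.9 and 74.3 CPM at 1 µM, 105, 112 and 66.3 CPM at 1.5 µM and 194, 313 and 404 CPM at 3 µM. The ranges at 1 and 1.5 µM overlapped that of DMSO, and all 3 libraries at 3 µM lay above every other library. Krt7 rose 3.79-fold at 3 µM against DMSO (log2 1.92 ± 0.344, SE, 95% interval 1.16 to 2.69, edgeR adjusted p = 0.000965). The rise was 1.70-fold in culture 1, 5.54-fold in culture 2 and 5.87-fold in culture 3. Without culture 3 at 3 µM, the library that stood apart, the log2 fold change was 1.64 (edgeR adjusted p = 0.00344). At 1 µM the log2 difference from DMSO was 0.14 (95% interval −0.60 to 0.88) and at 1.5 µM it was 0.24 (−0.50 to 0.98), neither called, with edgeR adjusted p = 0.921 and 0.624. Between 1.5 and 3 µM it rose 3.22-fold (edgeR adjusted p = 0.00572). That step was not called without culture 2 (log2 1.80, adjusted p = 0.103) or without culture 3 (log2 1.20, adjusted p = 0.0511). Over all genes 345 were called for this step without culture 2 and 5190 without culture 3, against 4544 with all cultures.

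Krt8, the main type II keratin of simple epithelia and the partner of Krt18, went the other way. It was at 1097, 633 and 745 CPM in DMSO, 927, 766 and 639 CPM at 1 µM, 684, 689 and 507 CPM at 1.5 µM and 446, 543 and 487 CPM at 3 µM. Cultures 1 and 3 declined at each dose, whereas in culture 2 the DMSO library was below the libraries at 1 and 1.5 µM. Krt8 fell 1.68-fold at 3 µM against DMSO (log2 −0.75 ± 0.217, 95% interval −1.23 to −0.26, edgeR adjusted p = 0.0137). Within cultures 1, 2 and 3 the level at 3 µM was lower by 2.46-, 1.17- and 1.53-fold. The call rests on culture 1: without its DMSO library the log2 fold change was −0.49 (edgeR adjusted p = 0.0527), and without culture 1 in all groups it was −0.42 (adjusted p = 0.145). The differences at 1 µM (log2 −0.086, 95% interval −0.57 to 0.39) and at 1.5 µM (−0.40, −0.88 to 0.083) were not called, with edgeR adjusted p = 0.927 and 0.197.

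Among the type I keratins, Krt18, the partner of Krt8, had the smallest fold change. It was at 643, 461 and 664 CPM in DMSO, 548, 541 and 550 CPM at 1 µM, 451, 489 and 458 CPM at 1.5 µM and 375, 436 and 458 CPM at 3 µM. The 3 µM libraries lay below the DMSO libraries, but only just: the highest at 3 µM (culture 3) was at 458.0 CPM and the lowest in DMSO (culture 2) at 460.7 CPM. Within cultures the level at 3 µM was lower by only 1.06-fold in culture 2, against 1.71- and 1.45-fold in cultures 1 and 3. Krt18 fell 1.39-fold at 3 µM (log2 −0.48 ± 0.134, 95% interval −0.78 to −0.18, edgeR adjusted p = 0.0115). This small change lost its call without culture 1 (log2 −0.33, edgeR adjusted p = 0.206), without culture 3 (−0.45, adjusted p = 0.0578) and with only the DMSO and 3 µM libraries fitted (−0.52, adjusted p = 0.0529). At 1.5 µM the log2 difference of −0.34 (95% interval −0.64 to −0.041) missed the threshold with an edgeR adjusted p of 0.0852. It passed without the DMSO library of culture 2 (−0.51, edgeR adjusted p = 0.00931) and in DESeq2 (adjusted p = 0.0401). At 1 µM the log2 difference was −0.11 (−0.41 to 0.19, edgeR adjusted p = 0.824).

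Krt19, a type I keratin without the tail domain of its relatives and a marker of luminal cells, had the largest fall of the 3. It was at 1464, 825 and 611 CPM in DMSO, 1255, 1071 and 714 CPM at 1 µM, 753, 764 and 736 CPM at 1.5 µM and 235, 201 and 237 CPM at 3 µM. The spread between cultures was wide in DMSO (967 ± 443 CPM, SD, n = 3) and narrow at 1.5 µM (751 ± 13.9 CPM) and 3 µM (224 ± 20.5 CPM). The fall at 3 µM was 4.31-fold (log2 −2.11 ± 0.302, 95% interval −2.78 to −1.44, edgeR adjusted p = 0.000248), and within cultures 1, 2 and 3 it was 6.23-, 4.11- and 2.58-fold. At 1 µM the log2 difference was 0.068 (−0.58 to 0.71) and at 1.5 µM it was −0.36 (−1.01 to 0.28), neither called, with edgeR adjusted p = 0.962 and 0.377. The step from 1.5 to 3 µM was a 3.35-fold fall (edgeR adjusted p = 0.00256). It was not called without culture 2 (log2 −1.66, adjusted p = 0.112), where 345 of all genes were called, against 4544 with all cultures.

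Krt23, a type I keratin known as a gene that histone deacetylase inhibitors induce in cancer cells, was scarce in DMSO, with 29, 8 and 29 counts or 1.29, 0.812 and 1.56 CPM. It reached 7.51, 2.83 and 3.98 CPM at 1 µM, 15.3, 13.4 and 6.14 CPM at 1.5 µM and 15.8, 15.9 and 23.9 CPM at 3 µM. Every treated library was above every DMSO library, and in TMM-scaled CPM the level went up at all 3 steps of dose in all 3 cultures. The last step, which was not called, was only from 15.3 to 15.8 CPM in culture 1. In cultures 1 and 2 it rested on the scaling. Culture 1 had 240 counts of 14.6 M at 1.5 µM and 201 of 14.6 M at 3 µM. Culture 2 had 348 of 24.5 M and 247 of 18.5 M. At 3 µM Krt23 rose 14.8-fold (log2 3.88 ± 0.480, 95% interval 2.82 to 4.95, edgeR adjusted p = 9.5e-05), by 12.2-, 19.5- and 15.3-fold in cultures 1, 2 and 3. Without culture 3 at 3 µM the log2 fold change was 3.64 (edgeR adjusted p = 0.000269).

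Krt23 was also the only one of the 5 called at 1.5 µM against DMSO, where it rose 9.25-fold (log2 3.21 ± 0.469, 95% interval 2.17 to 4.25, edgeR adjusted p = 0.00125) and where 27.3% of all genes tested were called (15.4% higher). Without culture 2 in all groups its edgeR adjusted p was 0.0608 (log2 2.90), and none of the 5 was then called. Over all genes that fit called 457, against 4177 with all cultures. At 1 µM none of the 5 was called by edgeR, and 0.242% of all genes were. Krt23 came nearest, 3.81-fold above DMSO (log2 1.93 ± 0.457, 95% interval 0.91 to 2.95) with an unadjusted p of 0.0017 and an adjusted p of 0.132 in edgeR. It was the only one of the 5 with an unadjusted p under 0.05 there. The adjusted p was 0.0561 with the replicate number as a block and 0.00464 in DESeq2. Libraries at 1 µM and in DMSO did not overlap for Krt23, nor for 19.4% of all genes.

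**Figure D2:**
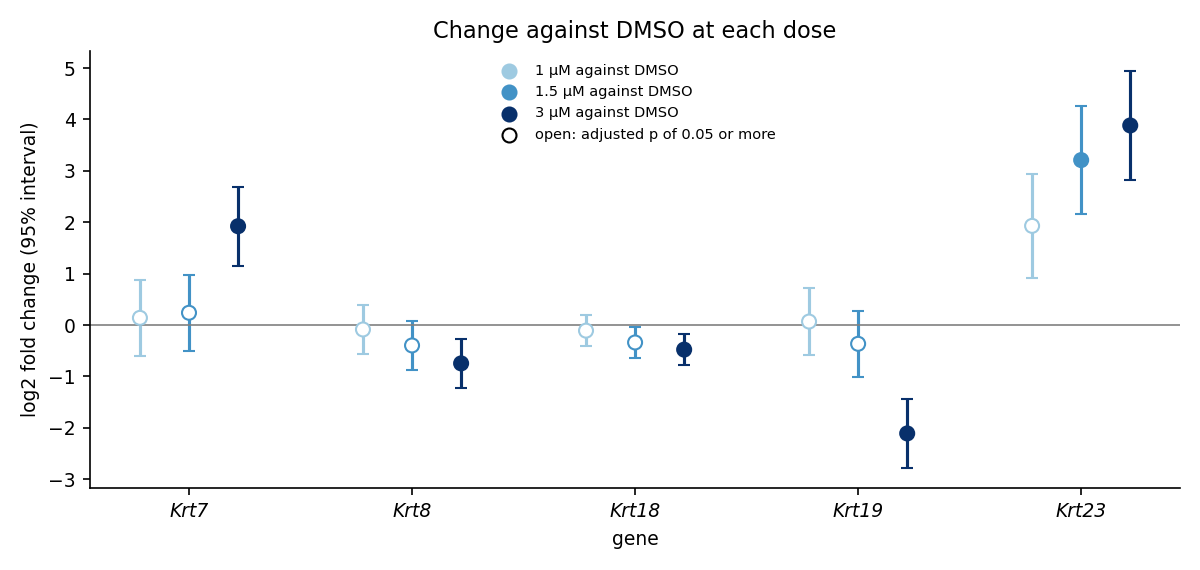
Log2 fold change against DMSO of each simple keratin at 1, 1.5 and 3 µM (points, with 95% intervals as bars); filled points have an adjusted p below 0.05 in edgeR's quasi-likelihood test and open points do not. At 3 µM all 5 are filled, 2 above 0 and 3 below, whereas at 1.5 µM only Krt23 is, at 3.21.

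Between neighbouring doses, different keratins were called. From 1 to 1.5 µM none of the 5 was called in the model without a block (5.43% of all genes were). Krt23 had a log2 difference of 1.28 ± 0.424 there (unadjusted p = 0.0127 and adjusted p = 0.116 in edgeR), and it passed with the replicate block (1.33, adjusted p = 0.0453, where 21.9% of all genes were called) and in DESeq2 (adjusted p = 0.0444). No other simple keratin of the 5 had an unadjusted p under 0.05 at this step. From 1.5 to 3 µM, Krt7 rose and Krt19 fell, as given above, where 29.7% of all genes were called (17.0% higher, 12.7% lower). Over that last step Krt23 differed by 0.68 (95% interval −0.25 to 1.60), Krt8 by −0.35 (−0.83 to 0.13) and Krt18 by −0.14 (−0.44 to 0.16), with edgeR adjusted p = 0.244, 0.246 and 0.457. Between 1 and 3 µM all 5 were called, where 52.0% of all genes were (27.8% higher, 24.2% lower): the log2 fold changes were 1.78 for Krt7, −0.66 for Krt8, −0.37 for Krt18, −2.18 for Krt19 and 1.96 for Krt23. The calls of Krt8 (edgeR adjusted p = 0.0266) and Krt18 (0.0401) in that comparison were each lost in several of the fits that left out 1 library, up to 0.0949 for Krt8 and 0.124 for Krt18. Without culture 2 in all groups Krt19 alone was called, where 3583 of all genes were, against 7968 with all cultures.

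A slope over the whole dose range, per µM with DMSO at 0, was called for all 5, as for 58.2% of all genes. On the log2 scale it was 0.66 ± 0.118 per µM for Krt7, −0.26 ± 0.0696 for Krt8, −0.17 ± 0.044 for Krt18, −0.76 ± 0.152 for Krt19 and 1.25 ± 0.217 for Krt23 (SE, edgeR adjusted p from 0.000448 for Krt23 to 0.0065 for Krt18). A straight slope does not carry the shape: Krt7 and Krt19 were called only in comparisons that include 3 µM, and Krt23 already at 1.5 µM against DMSO. The slopes of Krt8 and Krt18 were not called without culture 1 (edgeR adjusted p = 0.0861 and 0.136). None of the 5 simple keratins was called for a difference in level between cultures, where 28.8% of all genes were. Their edgeR adjusted p ran from 0.158 for Krt19 to 0.742 for Krt7, with a lowest unadjusted p of 0.0778. For a difference in slope between cultures edgeR called no keratin and none of the 15316 genes (0%), of which 1230 had an unadjusted p under 0.05. The adjusted p of the keratins ran from 0.575 to 0.999 there, and only Krt8 had an unadjusted p under 0.05, at 0.0311.

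Per kilobase of merged exons, which allows genes to be compared, the order in DMSO was Krt19 (521 ± 239 CPM per kb), Krt8 (421 ± 124), Krt18 (410 ± 77.8), Krt7 (11.3 ± 4.31) and Krt23 (0.78 ± 0.242; SD, n = 3). The ranges of the first 3 overlapped, so their order is within the spread, while Krt7 and Krt23 each stood clear below. At 3 µM the order was Krt18 (294 ± 29.9), Krt8 (251 ± 24.7), Krt19 (121 ± 11.0), Krt7 (43.0 ± 14.9) and Krt23 (11.8 ± 2.97). Krt18 and Krt8 still overlapped there, and Krt19 had dropped clear of both. Krt7 has a long set of merged exons (7049 bases, of which its longest transcript covers 4094), and per kilobase of that transcript it was at 19.5 in DMSO and 74.1 at 3 µM.

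Ratios of counts within a library compare 2 keratins without any scaling. Krt7 stood at 0.104, 0.0893 and 0.0924 counts per Krt8 count in DMSO and at 0.434, 0.576 and 0.830 at 3 µM, in cultures 1, 2 and 3. These type II keratins thus drew near to each other in counts. The log2 ratio rose by 0.91 per µM (two-sided exact permutation of the doses over 12 libraries, p = 5.41e-06, adjusted p = 1.62e-05 over 6 measures). Krt7 to Krt19 went from 0.0781, 0.0684 and 0.113 to 0.825, 1.56 and 1.70, or 1.38 per µM on the log2 scale (exact permutation, adjusted p = 0.000479). In cultures 2 and 3 at 3 µM Krt7 had more counts than Krt19. Krt19 to Krt18 fell from 2.28, 1.79 and 0.921 to 0.626, 0.460 and 0.518 (−0.55 per µM, exact permutation, adjusted p = 0.00654), and Krt23 to Krt18 rose by 1.46 per µM (exact permutation, adjusted p = 0.000141). These permutations ignore the pairing by animal. With doses permuted only within cultures, the exact permutation adjusted p was 0.000217 for Krt7 to Krt8 and 0.00195 for Krt7 to Krt19. It was 0.0115 for Krt19 to Krt18 and 0.00116 for Krt23 to Krt18.

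Krt8 and Krt18, the pair that forms the basic filament of simple epithelia, kept nearer to each other. The ratio of Krt8 to Krt18 counts was 1.71, 1.37 and 1.12 in DMSO, 1.69, 1.42 and 1.16 at 1 µM, 1.52, 1.41 and 1.11 at 1.5 µM and 1.19, 1.24 and 1.06 at 3 µM. At each of DMSO, 1 and 1.5 µM culture 1 had the highest ratio and culture 3 the lowest. The slope was −0.089 per µM on the log2 scale, with an exact permutation p of 0.163 (adjusted 0.163). Where doses were permuted only within cultures, which keeps the pairing by animal, the exact permutation adjusted p of the same slope was 0.00538, and the ratio at 3 µM was below that in DMSO in 3 of 3 cultures, with log2 differences of −0.52, −0.14 and −0.08. For 3 libraries against 3 at 3 µM and in DMSO, the exact permutation p was 0.3 for Krt8 to Krt18 and 0.1, the smallest possible, for the other 4 ratios.

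**Figure D3:**
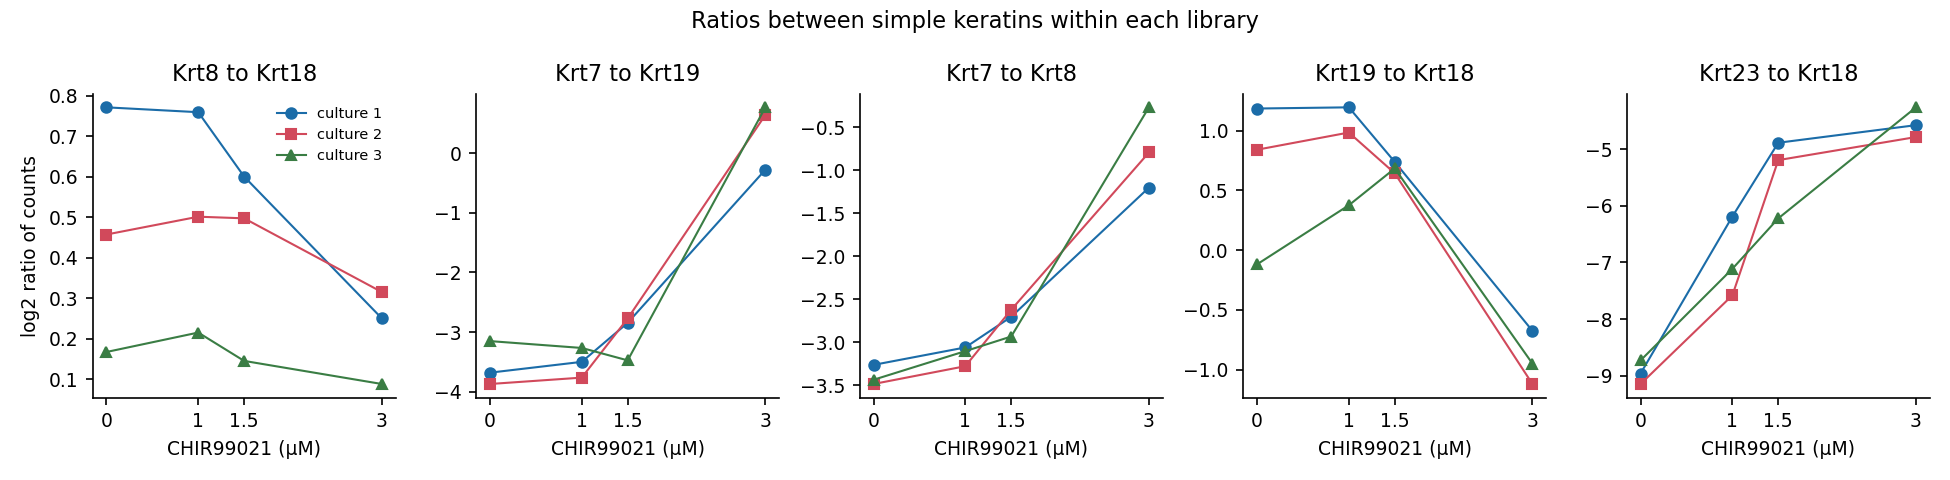
Log2 ratio of counts of 2 simple keratins in the same library against the CHIR99021 dose in µM, 1 line per culture; each panel has its own vertical axis. Krt7 gains on Krt8 and Krt19 chiefly between 1.5 and 3 µM, Krt23 gains on Krt18 from 1 µM on, and Krt8 to Krt18 spans only 0.088 to 0.77.

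Across the 12 libraries the log2 levels of Krt8 correlated with those of Krt18 (Pearson r = 0.809) and Krt19 (0.826), and those of Krt7 with Krt23 (0.732), while Krt7 and Krt19 ran against each other (−0.757). These are descriptions over n = 12 libraries that share 4 doses and 3 cultures. After the group means were taken out, r was 0.851 for Krt7 and Krt8 (against −0.403 before), 0.702 for Krt7 and Krt23, 0.697 for Krt8 and Krt19 and 0.524 for Krt8 and Krt18. It was 0.048 for Krt18 and Krt19, against 0.649 before. The genes most like each keratin over the 12 libraries, among 12438 compared, were Anxa3 (r = 0.969), Mxd1 (0.968) and Zdhhc18 (0.966) for Krt7 and Ptplad1 (0.956), Arvcf (0.947) and Bik (0.935) for Krt8. For Krt18 they were Arl10 (0.901), Tpm1 (0.898) and Ptplad1 (0.887). Kif5c (0.987), Fam180a (0.984) and Tcf7l2 (0.979) were nearest to Krt19, and Frrs1 (0.986), Wfdc5 (0.981) and Abca12 (0.980) to Krt23.

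Set beside the rest of the keratin family, the 5 simple keratins held a smaller share at each higher dose. They held 52.3, 55.9 and 54.0% of all keratin counts in DMSO (cultures 1, 2 and 3), 39.8, 39.8 and 37.8% at 1 µM, 15.0, 15.3 and 16.5% at 1.5 µM and 1.67, 1.98 and 5.47% at 3 µM. The groups did not overlap at any dose, and culture 3 at 3 µM, whose suprabasal keratins were low, kept the most. The log2 odds of the share fell by 1.89 per µM (two-sided exact permutation, p = 2.71e-06, the smallest it can give, adjusted p = 1.62e-05), and by 2.04 without that library. With doses permuted only within cultures the exact permutation adjusted p was 0.000217. Of whole libraries the 5 keratins made up 0.249 ± 0.0826% in DMSO and 0.128 ± 0.0190% at 3 µM (SD, n = 3). All keratins together made up 0.465 ± 0.169% and 5.24 ± 2.21%.

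**Figure D4:**
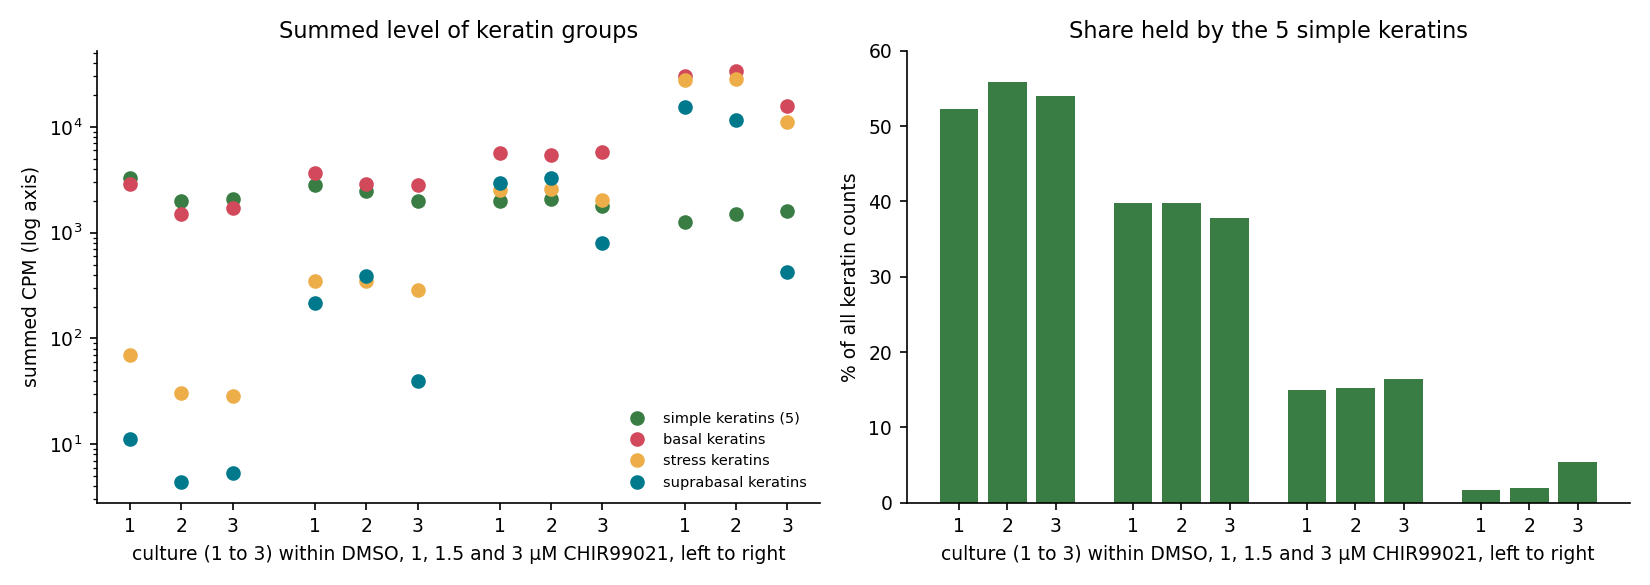
Left, summed CPM (log axis) of the 5 simple keratins and of the basal, stress and suprabasal keratin groups in each of 12 libraries; right, the percentage of all keratin counts held by the 5 simple keratins, as bars from 0. The simple keratins stay between 1266 and 3319 CPM while basal and stress keratins climb past them, so the share drops from 54.1% on average in DMSO to 3.04% at 3 µM.

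The other keratins of the table moved mostly up. Of the 38, 21 had enough counts to be tested, and at 3 µM 16 were higher, 2 were lower (Krt71 and Krt9, hair sheath and palm or sole keratins) and 3 were not called, with a median log2 fold change of 3.99. These counts were the same with the replicate block. Over all genes 29.9% were higher and 27.7% lower, and with the block 34.1% and 34.8%. At 1.5 µM 13 of 21 were higher (15.4% of all genes), also with the block (22.3% of all genes). The block called 1 lower (24.3% of all genes) and the fit without it none (11.8% of all genes). At 1 µM 2 of 21 were higher (0.189% of all genes), and 9 with the block (2.55% of all genes). Of the basal keratins Krt17 (log2 fold change 4.88), Krt14 (3.84) and Krt5 (3.42) rose at 3 µM, with edgeR adjusted p of at most 1.86e-05, while Krt15 was at −1.13 (adjusted p = 0.091). Krt6b (11.13), Krt16 (9.60) and Krt6a (7.96) rose further, though close paralogs make the division of reads among them uncertain. Krt1 (12.46) and Krt10 (9.77) did too (edgeR adjusted p = 0.000331 and 0.000563). Of the 2 keratins listed beside the simple ones, Krt80, a type II keratin found near desmosomes, rose 19.1-fold (log2 4.25 ± 0.341, edgeR adjusted p = 8.09e-06), from 5.50 ± 2.24 to 107 ± 24.6 CPM (SD, n = 3). Krt20, the keratin of gut epithelium, had at most 1 count in a library and was not tested.

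Genes of related roles were read from lists, by how many of their tested members were called at 3 µM against DMSO. The shares over all genes to read these counts against are 29.9% higher and 27.7% lower, and with the replicate block 34.1% higher and 34.8% lower (68.9% in either direction). Of 11 genes of epithelial junctions and the epithelial surface, 6 were higher, none was lower and 5 were not called, with a median log2 fold change of 0.76. With the block 9 of 11 were higher, where 34.1% of all genes were. Prom1, a membrane protein of the luminal surface, rose by 2.89 and the tight junction claudin Cldn4 by 2.49 on the log2 scale (edgeR adjusted p = 1.54e-05 and 0.00187). Cdh1, E-cadherin, was at 0.40 (edgeR adjusted p = 0.165, and 0.00943 with the block). Of 9 luminal and epithelial transcription factors 4 were higher, none was lower and 5 were not called, against 29.9% higher and 27.7% lower over all genes, and with the block 4 were higher and 2 lower. Klf5 (2.98), Ehf (1.00) and Tfap2c (0.77) had the largest calls. Without culture 2 the calls of Cldn4 (edgeR adjusted p = 0.0633) and Ehf (0.154) were lost, and without culture 1 that of Tfap2c (0.097). Gata3, the factor of luminal fate, was at −0.54 with an edgeR adjusted p of 0.11, and 0.000561 with the block, and Elf5, that of alveolar cells, was at −0.14 (edgeR adjusted p = 0.614).

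In the short lists of luminal subtypes no count is a result about the list, since 29.9% of all genes were higher and 27.7% lower, and single genes are given as values. Of 7 genes of hormone-sensing luminal cells 2 were higher (the EGF receptor ligand Areg, log2 4.49, and Ly6a, 2.76), 3 were lower and 2 were not called. Those lower were all hormone receptors: the progesterone receptor Pgr (−3.28), the oestrogen receptor Esr1 (−1.44) and the prolactin receptor Prlr (−1.29), with edgeR adjusted p = 0.0134, 0.0127 and 0.00042. The call of Pgr was lost in 3 of 21 alternatives (edgeR adjusted p up to 0.0757, without culture 1) and that of Esr1 in 2 (up to 0.0951, without culture 2). Of 10 genes of alveolar luminal cells 1 was higher, lactoferrin (Ltf, 4.56), and 3 were lower: the milk protein gene Lalba (−5.38), the milk fat globule gene Mfge8 (−2.33) and the retinaldehyde dehydrogenase Aldh1a3 (−2.23). The other 6 were not called. With the block 3 of 10 were higher and 4 lower, against 34.1% and 34.8% of all genes. Without culture 2 Ltf, Lalba and Aldh1a3 were not called (edgeR adjusted p = 0.0659, 0.0862 and 0.0596), and Lalba also not without the DMSO library of culture 3 (0.0518) nor Aldh1a3 without culture 1 (0.0517). In the list of 9 luminal markers, which holds Krt8, Krt18 and Krt19 themselves, 5 were lower and 4 were not called, with a median of −0.75 and 27.7% of all genes lower.

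Proteins that anchor keratin filaments or act on them were called in both directions. Of 11 such genes 10 were in the table, and 6 were higher, 1 was lower and 3 were not called (29.9% higher and 27.7% lower over all genes), with a median log2 fold change of 0.47. The plakins that tie filaments to desmosomes and the cornified envelope had the largest rises, Evpl by 4.39, Dsp by 3.29 and Ppl by 2.71 (edgeR adjusted p from 1.58e-06 to 5.04e-05). Dst, whose epithelial form ties keratins to the basement membrane, fell by 0.70 (edgeR adjusted p = 0.0146), a call lost in 4 of 21 alternatives (up to 0.215, without culture 2). Plec, the plakin plectin, was at −0.40 (edgeR adjusted p = 0.12, and 0.0121 with the block). Of 8 other intermediate filament genes, the nuclear lamins Lmnb1 (1.46) and Lmnb2 (0.70) were higher. Desmin (Des, −4.02), vimentin (Vim, −2.21) and synemin (Synm, −1.35), filaments of muscle and mesenchymal cells, were lower, and 3 were not called, again against 29.9% higher and 27.7% lower over all genes. The call of Vim (edgeR adjusted p = 0.0332) was lost in 6 of 21 alternatives and that of Des (0.0207) in 4. Among these were a fit of Vim with no filter (adjusted p = 0.0653) and fits that left out 1 of several libraries: 3 µM culture 1 (0.0756 for Vim and 0.0689 for Des), 3 µM culture 2 (0.0919 and 0.0666), DMSO culture 3 (0.0696 and 0.0766) and, for Vim, DMSO culture 2 (0.0792). Without culture 2 in all groups edgeR's adjusted p was 0.268 for Vim, 0.155 for Des, 0.0574 for Synm, 0.065 for Lmnb1 and 0.0853 for Lmnb2.

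**Figure D5:**
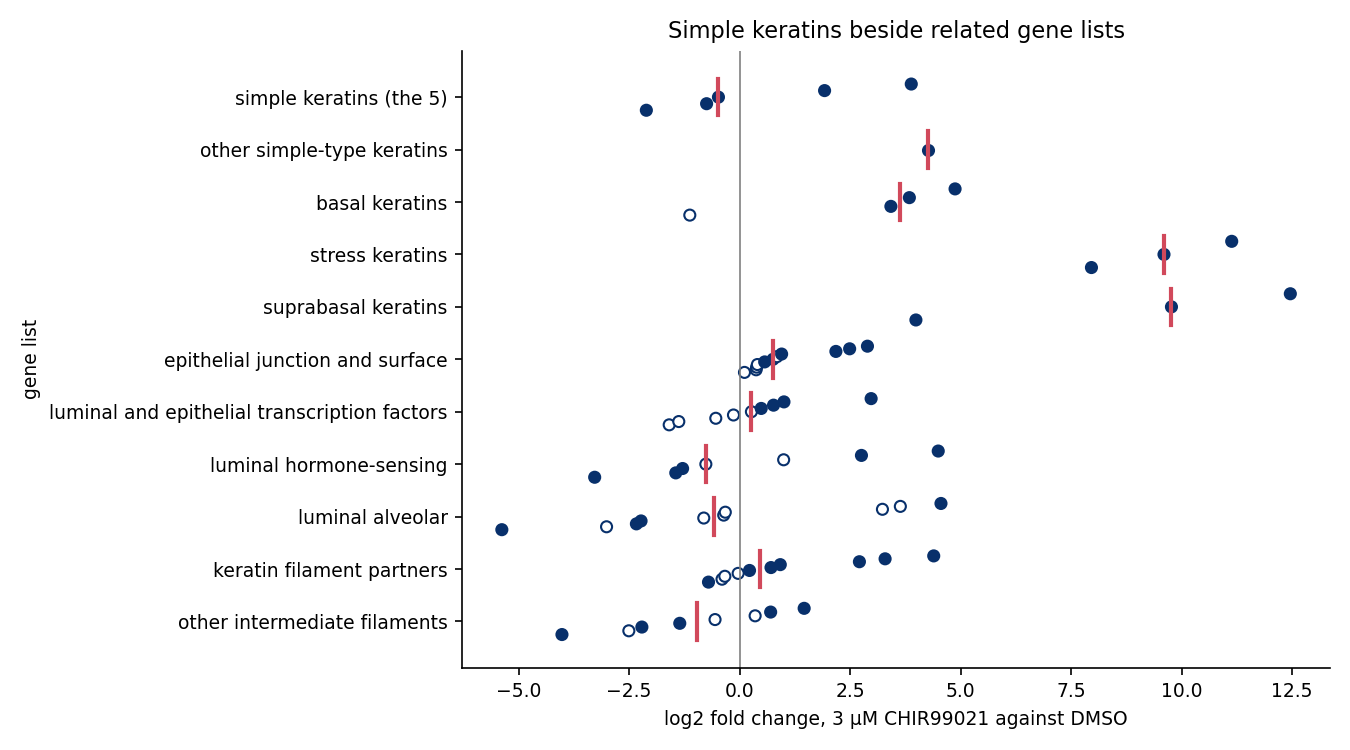
Log2 fold change at 3 µM against DMSO (horizontal axis) of each tested gene in 11 gene lists (rows); filled points have an adjusted p below 0.05 in edgeR's quasi-likelihood test, open points do not, and red bars are list medians. The 5 simple keratins spread from −2.11 to 3.88, while the stress keratins lie from 7.96 to 11.13.

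Markers of other cell types moved at 3 µM beside these changes. Of 11 squamous genes 11 were higher, where 29.9% of all genes were, and their summed level went from 40.7–95 CPM in DMSO to 10273–34734 CPM. Of 8 basal or myoepithelial genes 3 were higher (Krt14, Krt5 and Trp63) and 5 lower, against 29.9% and 27.7% of all genes. Among those lower were the contractile genes Myh11 (log2 −5.25) and Cnn1 (−5.54) and the oxytocin receptor Oxtr (−7.10). Of the markers of cells outside the epithelium, 5 of 6 macrophage, 5 of 5 endothelial and 4 of 4 adipocyte genes were lower, where 27.7% of all genes were. None of 7 fibroblast genes was called in the model without a block, with a median log2 fold change of −2.06, and 6 were lower with the block, where 34.8% of all genes were.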

How the data were processed

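Raw read counts per gene were deposited by the authors as 1 table for the 12 libraries. Per the labels' protocols, the kit was a stranded TruSeq kit for poly(A) RNA. The submitters' processing notes name TopHat2 2.1, Bowtie 1.1.0, HTSeq and DESeq2 and the builds GRCm38 and mm10; how each was used, the counting strand and the annotation release are not given in the sources used here. The deposited table of normalized log2 values was not used. All genes were fitted with edgeR 4.0.16 (R 4.3.3): filterByExpr on the 4 groups kept 15316 of 25210 genes, scaling was by TMM, and a robust quasi-likelihood model with a mean per group was tested two-sided, with Benjamini-Hochberg adjustment over all genes tested and a threshold of 0.05. Standard errors are the absolute log2 fold change over the square root of F, and intervals use t with the total degrees of freedom. CPM use the TMM-scaled library size. In simulated 3 µM against DMSO counts (15106 genes tested), 38% of 100 genes changed 2-fold and 81% of 100 changed 4-fold were called, with 9 false calls. No other gene was changed there and no pairing by animal was simulated, whereas 57.5% of genes were called in the data. These rates therefore need not hold for the real comparison.

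The ratios and the keratin share (any symbol of Krt and a number, 43 genes) were tested by two-sided exact permutation of the doses (369600 arrangements) and, as an alternative, within cultures (13824), with Benjamini-Hochberg adjustment over 6 measures. Replicate numbers pair libraries, since a number stands for 1 animal, per the design text in the labels. Deviations from group means correlated from 0.177 to 0.840 in 18 pairs of the same number (median 0.505), against a median of −0.212 in 36 pairs that differ in number and group. The fit with that number as a block was an alternative. The others were DESeq2 1.42.0, its size factors, library size only, no filter, only the 2 groups compared, and leaving out each library or culture.

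The keratins and gene lists were chosen with earlier results of these data known. All 5 keratins are named. From each list up to 3 called genes in each direction with the largest change at 3 µM and at least 50 counts on average are named, except 1 that is not reported here; Epcam, Cdh1, Gata3, Elf5, Plec, Krt15, Krt20, Krt71 and Krt9 were added after their values were seen. Likeness is Pearson's r of log2 CPM (prior count 2) over genes averaging at least 50 counts. All list genes but Eppk1 were matched, Adgre1 by its Ensembl identifier. Exon lengths are from GENCODE M21. The test of slopes between cultures was added after the first results. No column was left without a sample.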

Additional observations from a re-analysis of the deposited data

How the results depend on the processing

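Of 730 alternative values for the 5 keratins, 680 kept their direction and side of the threshold, 30 lost the call, 5 gained it and 15 changed sign, all 15 in differences that were not called. At 3 µM against DMSO, Krt7, Krt19 and Krt23 were called in all 21 alternatives. The number of keratins called was 5 at 3 µM (3 to 5 over fits that left out a library or culture, the 3 being without culture 1), 1 at 1.5 µM (2 in DESeq2; 0 to 2 when leaving out, 0 without culture 2) and 0 at 1 µM (1 in DESeq2). For 1.5 against 1 µM it was 0 (1 in DESeq2 and 1 with the replicate block), for 3 against 1.5 µM 2 (0 to 2, 0 without culture 2), for 3 against 1 µM 5 (1 to 5, 1 without culture 2) and for the slope 5 (3 to 5). The slope of Krt8 to Krt18 was −0.089 (adjusted p = 0.00538 in the exact permutation with the replicate block), and −0.13 to −0.058 over fits that left out a library, with an exact permutation adjusted p of 0.0437 without the DMSO library of culture 3. The replicate block changed no other call of the 5 keratins or of a ratio.

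The changes of sign, on the log2 scale, were these. For 1.5 µM against DMSO, Krt19 ran from −0.65 to 0.066 over fits that left out 1 library (0.066 also without culture 1), and Krt7 was at −0.098 without culture 2. For 1 µM against DMSO, Krt8 ran from −0.26 to 0.18 (0.030 without culture 1), Krt7 from −0.069 to 0.49 and Krt19 from −0.20 to 0.50 (−0.076 without culture 2). For 1.5 against 1 µM, Krt7 ran from −0.042 to 0.30 (−0.12 without culture 2). The cause was not tested.

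With library size only, the median of all genes at 3 µM moved from −0.03 to −0.23 and the calls split into 3395 higher and 5404 lower, against 4575 and 4239. The keratins kept their calls there, at 1.72 for Krt7, −0.96 for Krt8, −0.68 for Krt18, −2.31 for Krt19 and 3.69 for Krt23. Among all genes, the count called at 1 µM was 37, against 470 in DESeq2, 859 with the block, 0 with only the 2 groups and 0 to 119 when leaving out. For 1.5 against 1 µM it was 831, against 1610, 3351 with the block and 494 with no filter (0 to 1508). For 1.5 µM against DMSO it was 4177, against 7147 with the block (457 to 5085). For 3 against 1.5 µM it was 4544, against 7149 with the block and 2852 with only the 2 groups (345 to 5682). For 3 µM against DMSO leaving out gave 4769 to 9391, for 3 against 1 µM 3583 to 8697 and for the slope 5778 to 9062. Each of these ranges was lowest without culture 2 in all groups, and for 1.5 against 1 µM also without culture 1. Of 1008 alternative values for named list genes, 971 kept their call and 37 lost it. Krt23 had 8 counts in the smallest library, DMSO of culture 2, so its level there is imprecise.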

Other observations

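Other keratin genes of the same clusters had these values. Krt15, 4882 bases from Krt19 and itself a type I keratin, was at 111, 46.0 and 48.6 CPM in DMSO and at 49.5, 29.5 and 15.6 CPM at 3 µM in cultures 1, 2 and 3. It was lower in 3 of 3 cultures without passing edgeR's quasi-likelihood test against DMSO (log2 −1.13, adjusted p = 0.091). In between it was at 85.0, 67.8 and 104 CPM at 1 µM and at 51.3, 45.7 and 129 CPM at 1.5 µM. Against 1 µM the 3 µM level was called lower, where 24.2% of all genes were. Krt80, 40881 bases from Krt7, was at 8.09, 4.06 and 4.36 CPM in DMSO and at 80.0, 111 and 129 CPM at 3 µM. It stood at 65.4, 58.1 and 38.1 CPM at 1.5 µM, where Krt7 was not called. Krt78, 42411 bases from Krt8, rose by 7.10 on the log2 scale at 3 µM (edgeR adjusted p = 2.38e-06), from 0.608 to 84.5 CPM on average. Krt79, a type II keratin of hair follicle and gland ducts, went from 9.90 to 574 CPM on average (log2 fold change 5.86, edgeR adjusted p = 2.19e-05). These genes were chosen after their values were seen.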
